A study of Mus musculus with 2 samples.

Results

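The 500 genomic regions described here are those most accessible in all 4 subtypes of tanycyte, relative to the other cell classes, among the 107377 regions profiled by single-cell ATAC-seq in mouse hypothalamus. This assay marks open chromatin by where the Tn5 transposase can cut, and a detection is a region found open in a cell. The level of a region was its detections per 1000000 detections of a cell class (CPM), on the scale log2(CPM + 5), in each of the 2 libraries separately. The score of a region was its lowest level among alpha1, alpha2, beta1 and beta2 tanycytes minus its highest level among astrocytes, ependymal cells, neurons and oligodendrocyte precursor cells (OPCs), taken in the library where that difference was smaller. The 500 highest scores were kept. Levels in these 8 classes are therefore a description of the choice. Proliferating tanycytes did not enter it.

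The floor and lower walls of the third ventricle are lined by tanycytes, glial cells with a long basal process that resemble radial glia. Alpha tanycytes lie along the wall of the ventricle, and beta tanycytes lie ventrally, over the arcuate nucleus and the median eminence, where beta2 cells contact the portal blood vessels. They sense nutrients and hormones, carry signals between blood, cerebrospinal fluid and hypothalamus, and keep some capacity to form neurons and glia. Open regions distant from genes are usually more restricted to a cell type than promoters, which tend to be open in most cells.

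All cells came from mediobasal hypothalamus at postnatal day 8 and were sorted for Sun1-GFP, a tag of the nuclear envelope that both genotypes carried as CAG-lsl-Sun1-GFP and that Rax-CreER, active in tanycytes, switches on in them and leaves in their descendants. The control library was Rax-CreER;CAG-lsl-Sun1-GFP. The Nfia/b/x-deficient library had in addition floxed Nfia, Nfib and Nfix (each lox/lox), which encode nuclear factor I proteins known for promoting glial differentiation. Each genotype had 1 library, so no test between genotypes was possible, and the number of animals behind a library is not known here. The control library held 8948 cells and the deficient library 13337, with medians of 4549.5 and 4042 detections per cell. Of these, 7241 control cells (80.9%) and 9022 deficient cells (67.6%) were in the 4 subtypes. Class sizes ran from 63 control proliferating tanycytes to 4902 deficient alpha2 tanycytes. The libraries shared 204 cell barcodes, of which 43 carried the same class name; paired cells had a median of 0.054 of their regions in common, against 0.053 when pairs were mismatched. Regions carry row numbers only, so their genes, positions and sequences, marker genes of the classes and the deleted loci were not analysed here. The cell classes are the authors' names, and each genotype rests on its label. Each interval is an exact 95% interval that covers counting error alone, not differences between cells or animals.

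The regions shared by the subtypes formed a graded set and not a separate group. Only 1100 regions (1.02%) had a score above 0, where every subtype exceeded every other class in both libraries, and the median over all regions was -0.67. Among the 500 members the highest score was 0.67, the median 0.17 and the lowest 0.087. Scores above 0.5 were reached by 10 members, and 320 members had scores under 0.2. At rank 500 the lowest control subtype had 7.10 CPM and the highest other class 6.39, with 12.6 and 9.68 in the deficient library. At rank 501, outside the set, these levels were 18.2 and 12.8 (control) and 17.2 and 15.9 (deficient). These levels differed between the 2 regions, but their scores were close (0.08728 and 0.08716), so the limit of 500 marks no step in the scores. Across all 107377 regions the scores of the 2 libraries had a Pearson r of 0.669 and a Spearman rho of 0.590; the points share the scaling by library and class depth, and regions are not independent replicates.

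**Figure D1:**
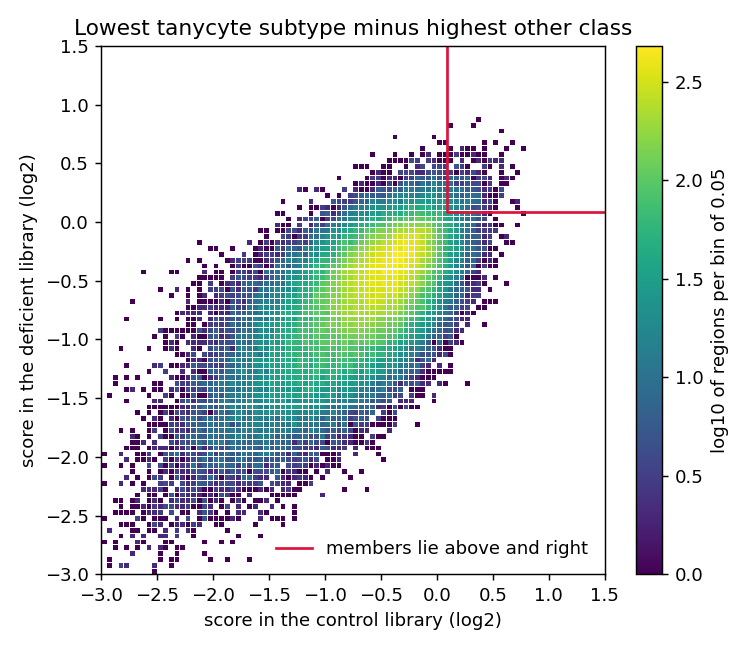
Score of each region in the control library (x axis, log2) against the deficient library (y axis, log2), as the number of regions per bin of 0.05, on a log10 colour scale. Most regions lie below 0 on both axes, and the 500 members fill the corner above 0.087 on both, at the edge of one continuous cloud.

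Summed over the set, accessibility was highest in beta2 tanycytes and lowest in OPCs in both libraries. The 500 regions took 8.95 (8.86 to 9.03) of every 1000 detections in control beta2 cells, 8.63 (8.57 to 8.70) in beta1, 8.28 (8.16 to 8.39) in alpha1 and 7.05 (7.02 to 7.08) in alpha2 cells. In the deficient library the order was the same, at 8.54, 8.30, 8.18 and 6.90 per 1000, although the intervals of beta1 (8.24 to 8.35) and alpha1 (8.08 to 8.28) overlapped. Of the other classes, control ependymal cells had 4.38, astrocytes 3.88, neurons 3.85 and OPCs 3.49 per 1000; deficient neurons had 4.11, ependymal cells 4.03, astrocytes 3.66 and OPCs 3.09. The lowest subtype, alpha2, thus exceeded the highest other class by 1.61-fold (1.56 to 1.66) in the control library, where that class was ependymal cells, and by 1.68-fold (1.66 to 1.70) in the deficient library, where it was neurons. The median member was found in 7.96% of control beta2, 6.73% of control alpha2, 2.27% of control neurons and 1.97% of control OPCs, shares that are not scaled by depth. In CPM the median member stood at 10.2 in control alpha2 cells and the median region at 4.23. These medians were 5.33 and 4.26 in control ependymal cells, 5.32 and 4.52 in neurons, and 4.84 and 4.56 in astrocytes. In control OPCs both were 4.69. In deficient OPCs the median member (3.603) was below the median region. In the other deficient classes it was above. The rule favours low levels in the other classes, and the sums per 1000 were not compared with an average region.

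**Figure D2:**
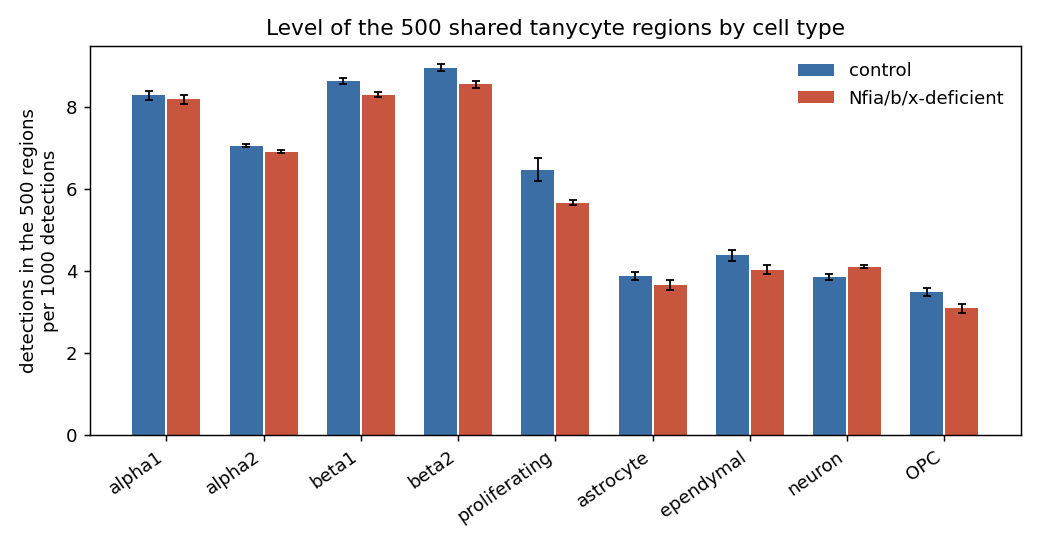
Detections in the 500 regions per 1000 detections (y axis) for the 9 cell classes (x axis) in the control and deficient libraries, with exact Poisson intervals. The 4 subtypes stand at 6.90 to 8.95, proliferating tanycytes at 6.46 and 5.66, and the other classes at 3.09 to 4.38.

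The region with the highest score, region 106595, illustrates how few detections stand behind a single member in the small classes. It was found in 6.98% of control alpha1, 6.57% of alpha2, 7.32% of beta1 and 6.08% of beta2 cells, and in 7.32%, 6.04%, 7.35% and 5.38% of the deficient cells of these subtypes. In the control library it was found in 6 of 325 astrocytes, 2 of 133 ependymal cells, 16 of 882 neurons and 5 of 304 OPCs, each under 2%. In the deficient library these were 6 of 223, 3 of 265, 49 of 2520 and 4 of 274, at most 2.69%. The next region, 26482, was far more accessible: it was found in 33.2% of control alpha1, 28.6% of alpha2, 23.0% of beta1 and 24.0% of beta2 cells. In the other control classes it was found in 8.88% of OPCs at the lowest and 18.8% of ependymal cells at the highest. Shares of cells are not scaled by depth, and the median was 3379.5 detections in these OPCs and 6036 in these ependymal cells. In CPM the region stood at 21.1 and 26.6 in these 2 classes. Proliferating tanycytes, which took no part in the choice, had region 106595 in 2 of 63 control cells (3.17%). The interval there (0.387 to 11.0%) held the value of every subtype. In deficient cells it was 3.29% (2.29 to 4.57%), below the value of every subtype. These cells had region 26482 in 22.2% (control, 12.7 to 34.5%) and 23.6% (deficient), within 1 percentage point of beta1 or beta2 cells. The median member had 290 detections in control alpha2 cells but 5 in control ependymal cells and 8.5 in control astrocytes, so the highest other class of a single member is often set by a handful of cells.

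Members were more accessible than the typical region. They were found in 194 to 9185 of the 22285 cells, with a median of 1141.5, against a median of 496 over all regions. Of the 500, 434 (86.8%) lay above the median region and 9 (1.8%) in the lowest 25% of regions. A region with few detections has its differences shrunk by the pseudocount, so the rule bears on this. The pseudocount also asks for a larger CPM ratio from a rarer region at the same score, so the following ratios describe the choice. The 166 found in the fewest cells (194 to 818) had 2.00-fold (1.89 to 2.11) higher CPM in control alpha2 cells than in the highest other class, and the 166 found in the most cells (1644 to 9185) had 1.48-fold (1.42 to 1.53). In the deficient library these ratios were 1.80 (1.74 to 1.86) and 1.60 (1.54 to 1.65).

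Within the 4 subtypes the span of most members was under 1 (log2), and more of them had a higher mean level in beta than in alpha cells. The span from the lowest to the highest subtype had a median of 0.47 (log2) in both libraries, and was under 1 in 457 members (91.4%) of the control and 460 (92%) of the deficient library. The span over all regions was not computed, the pseudocount narrows it, and the rule used these levels. A small span is therefore not shown to be particular to the members. Alpha2 was the lowest subtype for 232 control members (46.4%), while it was lowest for 11.8% of all regions. It was the highest subtype for 11 members (2.2%, all regions 23.8%). Beta2 was the highest for 202 control members (40.4%, all regions 31.0%) and 191 deficient members (38.2%, all regions 32.4%). Alpha1 was the highest for 144 control members (28.8%, all regions 27.8%) and 166 deficient members (33.2%, all regions 28.1%), so its control share was near the background. The mean level of beta1 and beta2 exceeded that of alpha1 and alpha2 in both libraries for 288 members, the reverse held in both for 101, and the libraries differed for 111. Across members, this beta-minus-alpha difference had a Pearson r of 0.798 and a Spearman rho of 0.751 between the libraries. The same subtype was highest in both libraries for 323 members, whereas the same other class was highest for only 179. For the beta-minus-alpha difference and for these counts of agreement, no share or correlation over all regions was computed. The rule used these levels, so they describe the members and are not shown to set them apart.

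Because the choice used both libraries, it was repeated with each library alone and read in the other. The 500 highest scores of the control library alone had a median of 0.35 there and of -0.0039 in the deficient library. In the latter, 247 of them (49.4%, 44.9 to 53.9%) had a score above 0, against 3.99% of all regions. Chosen in the deficient library and read in the control library, the median went from 0.35 to -0.0070 and 243 (48.6%, 44.1 to 53.1%) were above 0, against 3.86% of all regions. The 2 lists of 500 shared 94 regions. Summed over each list, the contrast was present in the library that had no part in the choice, and was smaller there. Control-chosen regions took between 5.97 and 6.03 per 1000 (the 95% interval) in deficient alpha2 cells, the lowest subtype, and 4.23 in deficient ependymal cells, the highest other class (1.42-fold, 1.38 to 1.46). Deficient-chosen regions took 6.33 and 4.61 in the same control classes (1.37-fold, 1.33 to 1.42).

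Proliferating tanycytes, a class made up of 63 control and 1033 deficient cells, stood between the 4 subtypes and the other classes. The 500 members took 6.46 (6.18 to 6.74) per 1000 detections in control and 5.66 (5.60 to 5.73) in deficient proliferating cells. Relative to alpha2, the lowest subtype, this was 0.916-fold (0.877 to 0.957) in control cells and 0.820-fold (0.810 to 0.830) in deficient cells. Relative to the highest other class it was 1.47-fold (1.40 to 1.55) and 1.38-fold (1.36 to 1.40). The choice favours the subtypes over any class it did not use, so the same reading was made in the library that had no part in the choice. There, control-chosen regions in deficient proliferating cells were at 4.69 per 1000, 0.782-fold (0.772 to 0.793) of alpha2 and 1.11-fold (1.08 to 1.14) of ependymal cells. Deficient-chosen regions in control proliferating cells were at 6.04 per 1000, 0.955-fold (0.913 to 0.999) of alpha2 and 1.31-fold (1.24 to 1.38) of ependymal cells. In the control library the place of this class below alpha2 was not stable to depth. In the shallower cells of each class, below or at its median depth, with members chosen again, the log2 ratio of proliferating to the lowest subtype was 0.029 in place of -0.13.

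Counts of single members depended on the choice. In deficient proliferating cells 304 members (60.8%) exceeded the highest of the 4 other classes, against 14.8% of all regions, and 114 (22.8%) reached the lowest subtype, against 76.3% of all regions. The lowest subtype of a member was raised by the rule and the highest other class was lowered by it, so both shares differ from the background in the direction the rule sets. Among regions chosen in the control library alone and read in the deficient library, 34.2% exceeded the highest other class in proliferating cells, and among those chosen in the deficient and read in the control library 50% did. In control proliferating cells the counts were 296 (59.2%, all regions 22.9%) and 230 (46%, all regions 58%), with a median of 3 detections per member. Both libraries had 199 members above the highest other class in proliferating cells, and 99 members were above it in neither.

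Members at the alpha end of the beta-minus-alpha difference were closer to the mean of the 4 subtypes in proliferating cells than those at the beta end. The gap was smaller against alpha2 cells alone. Members were ordered by this difference in the control library and read in the deficient library. It ran from -0.61 to 0.040 in the 166 called alpha-leaning and from 0.24 to 1.26 in the 166 called beta-leaning. These names are relative, because some of the alpha-leaning part had a difference above 0. Of the alpha-leaning members, 116 (69.9%) exceeded the highest other class in proliferating cells, compared with 88 of the beta-leaning (53.0%). The log2 ratio of proliferating cells to the mean of the 4 subtypes was -0.41 for the alpha-leaning, -0.43 for the 168 between them and -0.66 for the beta-leaning members. In the beta-leaning members the beta cells stood above the alpha cells, which raises that mean. Against alpha2 cells alone the ratios were closer together, at -0.25 (-0.28 to -0.22), -0.28 (-0.31 to -0.25) and -0.34 (-0.37 to -0.31). These parts were drawn after values had been seen and carry no test. For the counts of members above the highest other class, no share over all alpha-leaning or beta-leaning regions was computed. The counts therefore describe the members only.

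Sets chosen by rules of the same shape for single branches were read in the same class. Alpha regions (500 with alpha1 and alpha2 above all 6 other classes) took 6.06 per 1000 in deficient proliferating cells, against 6.37 in alpha2 and 8.11 in alpha1 cells. Beta regions (500 with beta1 and beta2 above all 6 others) took 2.51 there, against 6.94 in beta1 and 9.85 in beta2 cells, and 3.01 in ependymal cells. The shared regions, at 5.66 against 6.90 to 8.54, lay between these sets in how much of the subtypes' level proliferating cells had. In control proliferating cells alpha regions were at 5.68 and beta regions at 3.99. The sets overlapped little, with 7 alpha and 20 beta regions among the 500 shared ones. With 1 library per genotype the differences between sets were not tested.

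**Figure D3:**
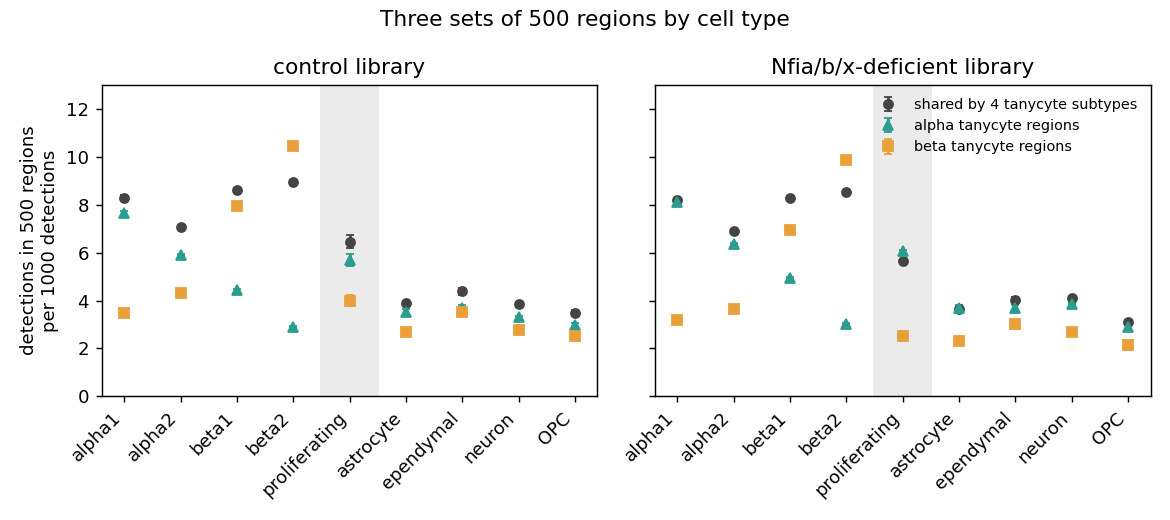
Detections per 1000 (y axis) in 500 shared, 500 alpha and 500 beta regions for the 9 classes (x axis), in the control (left) and deficient (right) libraries, with exact Poisson intervals. In the shaded class, proliferating tanycytes, deficient cells have 6.06 for alpha, 5.66 for shared and 2.51 for beta regions.

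Between genotypes the set was nearly level in the subtypes. The log2 ratio of deficient over control was -0.017 (-0.044 to 0.011) in alpha1, -0.030 (-0.039 to -0.021) in alpha2, -0.057 (-0.073 to -0.042) in beta1 and -0.066 (-0.086 to -0.047) in beta2 tanycytes. These ratios are small, and in all 4 subtypes their sign depended on which library chose the regions. In alpha1 cells the ratio was -0.21 (-0.24 to -0.19) for regions chosen in the control library alone and 0.16 (0.14 to 0.19) for those chosen in the deficient library alone. For the 4 subtypes pooled, the ratio was -0.024 for the 500 members, -0.19 for regions chosen in the control library alone and 0.075 for those of the deficient library. It was 0.10 for alpha regions, -0.16 for beta regions, -0.24 for astrocyte and OPC regions chosen likewise and 0.049 for regions open in every class. Region by region, the pooled ratio had a median of 0.0078 over the members and 0.069 over all regions. The rule asked for a high score in both libraries, which bears on these values. For the members, proliferating cells had -0.19 (-0.25 to -0.12), with -0.44 and -0.17 for regions chosen in the control and the deficient library alone. With median-of-ratios scaling it was -0.054, and the interval (-0.12 to 0.0094) held 0. In proliferating cells beta regions had -0.67 (-0.75 to -0.58), astrocyte and OPC regions -0.097 (-0.18 to -0.012) and alpha regions 0.093 (0.025 to 0.16). A value below 0 there was therefore not particular to the members. For the members, astrocytes had -0.086 (-0.14 to -0.030), ependymal cells -0.12 (-0.18 to -0.060) and OPCs -0.18 (-0.24 to -0.11). These directions also turned under alternatives: regions chosen in the control library gave 0.054 (-0.0031 to 0.11) in astrocytes and 0.14 (0.078 to 0.20) in ependymal cells, and shallower cells gave 0.053 (-0.091 to 0.20) in ependymal cells and 0.013 (-0.15 to 0.18) in OPCs. In neurons the ratio was above 0, at 0.092 (0.065 to 0.12), from 3.85 per 1000 in control and 4.11 in deficient cells. Alpha regions had 0.23 (0.20 to 0.26) in neurons and beta regions -0.046 (-0.079 to -0.013).

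Few single members differed by 2-fold or more between the genotypes. For single regions 1 CPM was added before taking ratios, with at least 50 detections over both libraries. Of the 500 members, all of which passed this minimum in the 4 subtypes pooled, 4 (0.8%) were higher and 11 (2.2%) were lower in the mutant cells, against 0.798% and 2.16% of all regions. A region high in only 1 library could not become a member, which limits these counts. In alpha2 cells 4 of 500 were higher and 14 lower (all regions 1.15% and 2.97%), in beta1 cells 3 and 7 of 489 (1.6% and 2.32%), and in beta2 cells 4 and 12 of 448 (1.04% and 2.87%). In alpha1 cells 10 of 322 were higher and 4 lower, where all regions gave 1.39% and 3.51%. Among the 319 members with enough detections in each of the 4 subtypes, 67 were higher in all 4 (21.0%, all regions 19.7%) and 92 were lower in all 4 (28.8%, all regions 21.8%), and none passed 2-fold in all 4, where all regions gave 0.034% higher and 0.703% lower. In neurons 20 of 352 were higher and 11 lower by 2-fold or more, against 6.03% and 5.61% of all regions, and 213 (60.5%) were higher at all, against 55.1%. In proliferating cells 24 of 213 were higher and 11 lower, against 13% and 3.89%, on few control detections.

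The members with the largest differences between genotypes differed in the same direction in every class, in the small classes on few or no detections. Region 88039, with the highest ratio after 1 CPM was added, was found in 1.69% of control alpha1, 2.25% of alpha2, 2.57% of beta1 and 1.88% of beta2 cells, and in 5.98%, 4.55%, 3.96% and 3.29% of the deficient cells of these subtypes. Over the 4 subtypes its control level was 3.77 CPM and its deficient level 9.08 CPM (log2 ratio 1.27, 0.998 to 1.54). Region 67426 had 3.24 and 7.83 CPM (1.27, 0.985 to 1.57), a ratio within the interval of the former. Both were higher in all 9 classes of the deficient library. Region 101883, with the lowest ratio, was found in 4.23% of control alpha1, 4.74% of alpha2, 4.11% of beta1 and 5.20% of beta2 cells, and in 0.858 to 1.20% of the deficient cells of these subtypes. Its control level was 7.81 CPM and its deficient level 2.03 CPM (log2 ratio -1.94, -2.30 to -1.60). Region 53030 had 16.9 and 6.01 CPM (-1.49, -1.70 to -1.29). Both were lower in all 9 classes. These 4 regions kept the tanycyte contrast at their changed level, as the rule required, and ranked between 377 and 498 of 500 by score.

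Nearly every cell had some of the members open, which was not compared with other sets of regions. Once depth was equal, the number per cell had a lower ratio of variance to mean in the subtypes than in neurons and OPCs. At full depth all 7241 control and 9022 deficient cells of the 4 subtypes had at least 2 members, with medians of 34 members in control alpha2 and 44 in control beta2 cells, while control neurons had a median of 7. Each cell was then thinned to 2000 detections and shallower cells were dropped, between 34 and 328 of each subtype. The median was 14 in alpha2, 17 in alpha1 and beta1 and 18 in beta2 cells of the control library. Single cells still differed, with a 5th to 95th percentile of 7 to 22 members in control alpha2 cells. Deficient proliferating cells had 11 and control proliferating cells 13. Astrocytes and ependymal cells of the control library had 7, neurons 6 and OPCs 5.5. The ratio of variance to mean over thinned cells was 1.29 to 1.52 in control subtypes and 1.23 to 1.47 in deficient ones. It was 3.71 in control neurons, 2.36 in deficient neurons and 2.61 and 2.53 in OPCs. The means there were lower, at 5.66 to 7.78 members against 13.9 to 18.1 in the subtypes. The standard deviation was 5.10 members in control neurons, 4.28 in deficient neurons and 4.10 and 3.79 in OPCs. In the subtypes it was 4.51 to 4.89, so only control neurons had a larger spread in members per cell. Of thinned control neurons, 44.0% (40.0 to 48.1%) had at least 7 members, the 5th percentile of alpha2 cells, and of deficient neurons 57.1% (54.9 to 59.3%), while 280 control and 560 deficient neurons were too shallow to enter. In OPCs the share was 40.1% (control) and 32.3% (deficient), and in deficient proliferating cells it was 90.4%.

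**Figure D4:**
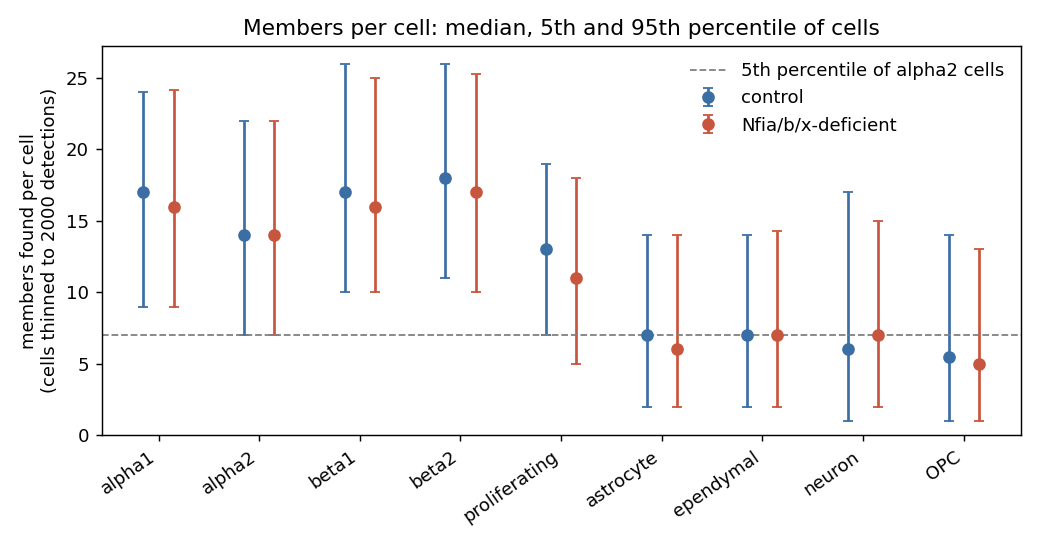
Number of the 500 regions found per cell after thinning to 2000 detections (y axis) for the 9 classes (x axis). Points are medians over cells, bars run from the 5th to the 95th percentile, and the dashed line is the alpha2 5th percentile of 7; control beta2 cells have a median of 18 and control OPCs 5.5.

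Outside the tanycytes the level of the set moved with the depth of the cell. Cells of each class and library were ordered by detections and put in 4 bins of equal size. In control neurons the members took 2.32 (2.15 to 2.50) per 1000 in the shallowest bin, 2.35 and 3.34 in the next bins and 4.75 (4.65 to 4.85) in the deepest. Deficient neurons went from 2.57 (2.47 to 2.67) to 4.92 (4.85 to 4.98). Control OPCs went from 1.93 to 4.31 and deficient OPCs from 2.26 to 3.79, and ependymal cells and astrocytes were also highest in the deepest bin. Alpha1, beta1 and beta2 cells went the other way, as with control beta2 cells, from 9.40 to 8.57, and alpha2 cells were between 6.74 and 7.26 in all 8 bins. In the shallowest bin, control alpha2 cells thus stood at 7.05 per 1000 against 2.32 in neurons, and in the deepest at 7.26 against 4.75. Alpha and beta regions showed the same pattern in neurons (log2 of deepest over shallowest 0.69 and 1.20 in the control library, 1.03 for the shared regions), while regions of astrocytes and OPCs, chosen likewise, had 0.15 and regions open in every class -0.51. Within astrocytes and OPCs, the astrocyte and OPC regions were lower in the deepest bin (-0.59 and -0.79). No source used here states how doublets were treated, and their part in this pattern was not tested.

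**Figure D5:**
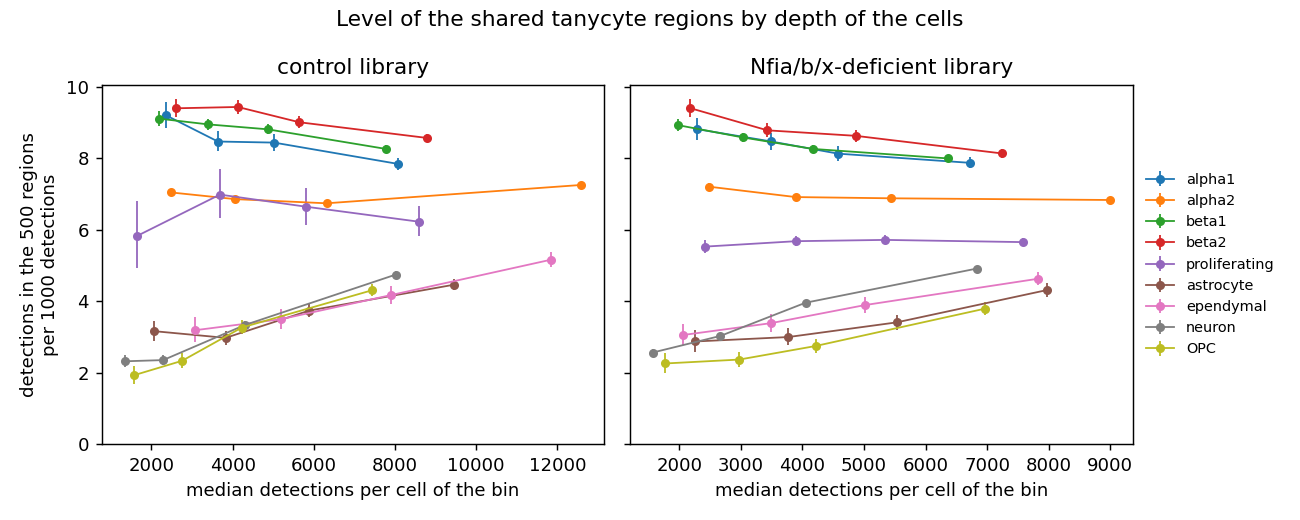
Detections in the 500 regions per 1000 detections (y axis) against the median depth of the cells in 4 bins per class (x axis, detections per cell), in the control (left) and deficient (right) libraries, with exact Poisson intervals. Control neurons run from 2.32 to 4.75 and deficient neurons from 2.57 to 4.92, while alpha2 tanycytes stay between 6.74 and 7.26.

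The genotype value in neurons changed with the depth of the cells used. The difference between the deficient and the control neurons was 0.20 (log2) with cells thinned to 2000 detections and members chosen again, and 0.36 in the shallower cells only, against 0.092 in all cells. With median-of-ratios scaling it was 0.025, and the interval (-0.0021 to 0.052) held 0.

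Most members had no other member in the row next to them in the matrix, and their spread over the row numbers was not measured. Of the 500, 13 (2.6%) had another member in the row next to them, compared with 8 of 500 alpha regions, 16 of 500 beta regions and 37 of 500 astrocyte and OPC regions. For regions open in every class it was 6 of 500. The share for rows taken at random was not computed, so these counts do not show whether members cluster. Neighbouring rows were slightly alike in their profile over the 8 classes, with a mean correlation of 0.11 at 1 row apart, 0.052 at 5 and 0.0039 at 100 rows apart, a description with no test. The 986 rows next to a member that were not members had a median score of -0.60, and 1.32% were above 0, against -0.67 and 1.02% over all regions.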

How the data were processed

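The matrix the authors deposited pairs region numbers with cell numbers and holds no other value, so it is a record of presence or absence (a unit outside the usual ones). Droplet libraries went through Cell Ranger ATAC 1.1.0 at its defaults, per the labels' protocols. Cell Ranger 3.1, Signac 0.2.5, Seurat, MACS2 and mm10 are named without roles, per the submitters' processing notes. Region calling, cell filters and class naming are not given in the sources used here. Cell classes are those of the deposited annotation. Matrix cells were taken in its order: 79.3% of control and 73.3% of deficient test cells were nearest to their own class profile, against 43.6% and 29.8% with labels moved by 1 cell.

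Detections were summed per class and library and divided by the class total (320785 to 28371961). The members and lists were chosen with earlier results of these data known. Regions named by number are the 2 highest scores and, among members with at least 200 detections, the 2 highest and 2 lowest ratios over the 4 subtypes pooled. The rule and ratios were run on simulated data that held counting error alone. The class differences planted there were larger than any member's score, so that run does not bear on the small scores of the members. Intervals are Clopper-Pearson, Poisson or conditional binomial (Python 3.11.15, numpy 2.4.6, scipy 1.17.1, pandas 2.3.3, matplotlib 3.10.9). Alternatives changed pseudocounts, set size, scaling, minimums, cell depth and the choosing library. Rows were not paired with positions, so no sequence is printed.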

Additional observations from a re-analysis of the deposited data

Results flagged for a closer look

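In neurons the members were more accessible in the deficient than in the control library (log2 ratio 0.092), while 7 of the other 8 classes had an interval below 0. This was flagged because the contrast in neurons had the opposite sign to that in those 7 classes, while the interval of alpha1 cells held 0. A value above 0 in neurons was not particular to the members. Alpha regions had 0.23 (0.20 to 0.26) there and regions open in every class 0.013 (0.0048 to 0.022). Beta regions had -0.046 (-0.079 to -0.013), and for astrocyte and OPC regions the interval (-0.034 to 0.027) held 0. The difference between classes was not tested, and each value rests on 1 library per genotype. The neuron interval held 0 with median-of-ratios scaling, and 6 of the 7 classes turned sign under at least 1 alternative.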

How the results depend on the processing

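Members were chosen again under each setting, and the alternative with only the shallower cells of each class (at or below its median depth) was chosen after seeing the data. Of the 500 members, 451 to 455 were shared under another rule pseudocount or median-of-ratios scaling, 182 with cells thinned to 2000 detections and 169 with shallower cells. The ratio of the lowest subtype to the highest other class is set by the choice and shows no stability. The ratio of deficient over control was below 0 in proliferating cells and above 0 in neurons in all 11 alternatives, but with median-of-ratios scaling both intervals held 0. In the values that follow, pseudocounts are in CPM, ratios are log2, and a control or deficient choice means regions chosen in that library alone. The log2 ratio of the lowest subtype to the highest other class in the control library (0.69) was 0.74 with a rule pseudocount of 1, 0.62 with a rule pseudocount of 20, 0.76 with 250 members, 0.59 with 1000 members, 1.01 with thinned cells, 0.74 with the deepest cells left out and 1.41 with shallower cells. Proliferating to lowest subtype in the control library (-0.13) was -0.27 with median-of-ratios scaling, -0.015 with thinned cells and 0.029 with shallower cells. Proliferating to highest other class in the control library (0.56) was 0.64 with 250 members, 0.39 with median-of-ratios scaling, 0.99 with thinned cells, 0.73 with control choice, 0.39 with deficient choice and 1.44 with shallower cells. The percentage of members above the highest other class in proliferating cells in the control library (59.2) was 51 with thinned cells, 64.6 with the deepest cells left out, 69 with control choice, 50 with deficient choice and 47.2 with shallower cells. The log2 ratio of the lowest subtype to the highest other class in the deficient library (0.75) was 0.78 with a rule pseudocount of 1, 0.71 with a rule pseudocount of 20, 0.82 with 250 members, 0.67 with 1000 members, 0.70 with median-of-ratios scaling, 0.72 with regions in at least 500 cells, 0.82 with thinned cells, 0.81 with the deepest cells left out and 1.34 with shallower cells. Proliferating to lowest subtype in the deficient library (-0.29) was -0.31 with a rule pseudocount of 1, -0.26 with a rule pseudocount of 20, -0.34 with 250 members, -0.26 with 1000 members, -0.25 with median-of-ratios scaling, -0.31 with the deepest cells left out, -0.35 with control choice and -0.35 with shallower cells. Proliferating to highest other class in the deficient library (0.46) was 0.41 with 1000 members, 0.54 with thinned cells, 0.50 with the deepest cells left out, 0.15 with control choice, 0.59 with deficient choice and 0.99 with shallower cells. The percentage of members above the highest other class in proliferating cells in the deficient library (60.8) was 55.1 with 1000 members, 34.2 with control choice, 77.8 with deficient choice and 73.4 with shallower cells. Deficient over control in alpha2 cells (-0.030) was 0.066 with deficient choice. Deficient over control in beta1 cells (-0.057) was 0.033 with deficient choice. In beta2 cells, deficient over control (-0.066) was 0.030 with deficient choice. In proliferating cells, deficient over control (-0.19) was -0.054 with median-of-ratios scaling, -0.32 with thinned cells, -0.44 with control choice and -0.40 with shallower cells. In astrocytes, deficient over control (-0.086) was 0.054 with control choice. In ependymal cells, deficient over control (-0.12) was 0.14 with control choice and 0.053 with shallower cells. In neurons, deficient over control (0.092) was 0.025 with median-of-ratios scaling, 0.20 with thinned cells, 0.14 with the deepest cells left out, 0.037 with control choice, 0.034 with deficient choice and 0.36 with shallower cells. In OPCs, deficient over control (-0.18) was 0.013 with shallower cells. In the 4 subtypes pooled, deficient over control (-0.024) was -0.034 with a rule pseudocount of 20, -0.039 with 1000 members, -0.064 with median-of-ratios scaling, -0.052 with thinned cells, -0.19 with control choice and 0.075 with deficient choice. The count of members higher by 2-fold or more (4) was 2 with a rule pseudocount of 20, 1 with 250 members, 8 with 1000 members, 1 with control choice, 9 with deficient choice, 0 with a ratio pseudocount of 5 and 9 with shallower cells. The count of members lower by 2-fold or more (11) was 6 with 250 members, 22 with 1000 members, 37 with control choice, 4 with deficient choice and 2 with a ratio pseudocount of 5. The percentage of control-chosen regions above 0 in the deficient library (49.4) was 44 with a rule pseudocount of 1, 54.4 with 250 members, 41.6 with 1000 members, 30.4 with thinned cells and 40.8 with shallower cells. The percentage of deficient-chosen regions above 0 in the control library (48.6) was 43.2 with a rule pseudocount of 1, 54.8 with 250 members, 41.9 with 1000 members, 31.4 with thinned cells and 41.2 with shallower cells. The cause of these differences was not tested. Alpha1 cells (-0.017) went from -0.21 with control choice to 0.16 with deficient choice. Of the alternative values of results that answer a comparison, 84 moved by more than their interval or, for counts, by over 1.5 times, 2 reversed and 77 did neither. No paired analysis was possible because each genotype has 1 library. Depth limits single members in the small classes, where the median member has 3 to 8.5 detections in the control library.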
